A study of Mus musculus with 9 samples.

Results

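The genes described here are the 7 linker histone H1 genes of somatic mouse cells, H1f1, H1f2, H1f3, H1f4, H1f5, H1f0 and H1f10, out of 55487 genes in the gene table. They were taken by symbol. H1f1 to H1f5 (formerly Hist1h1a, Hist1h1c, Hist1h1d, Hist1h1e and Hist1h1b) form the replication-dependent class, and H1f0 and H1f10 (formerly H1fx) form the replacement class. The set was proposed with the difference between 2-DG and control explants in these same libraries already known. Their levels in both groups are therefore a description, with no test of any member or sum.

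RNA-seq was performed on 9 libraries of retinal explants from wild-type C57BL/6J mice at P28, of which 5 were controls and 4 were treated with 2-deoxy-D-glucose (2-DG), a glucose analog that blocks glycolysis. All explants were whole retinas with sclera and pigment epithelium removed, kept for 48 h in medium with 5 mM glucose and then for 1 h in Krebs' Ringer medium. The treated group also received 20 mM 2-DG during culture. The sample titles call the libraries biological replicates without naming animals, so p-values measure only the spread between these libraries, which may be technical.

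Linker histones bind the DNA that enters and leaves the nucleosome and help to fold chromatin into more compact forms. The replication-dependent H1 genes lie among the core histone genes, have no introns, and are transcribed mostly in S phase into mRNAs that typically end in a conserved stem-loop in place of a poly(A) tail. Replacement linker histones are made outside S phase from polyadenylated mRNAs, and H1f0 in particular accumulates in cells that have stopped dividing, which is the state of nearly all cells of a mature retina. The library kit was primed at random on total RNA, so capture did not require a poly(A) tail.

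Each of the 7 genes has 1 annotated transcript with 1 exon in GENCODE M21 on GRCm38. The replication-dependent genes lie on chromosome 13. H1f1 (ENSMUSG00000049539) is at chr13:23763666-23764406 on the plus strand, H1f2 (ENSMUSG00000036181) at chr13:23738808-23740367 on the plus strand, and H1f3 (ENSMUSG00000052565) at chr13:23553262-23560686 on the plus strand. H1f4 (ENSMUSG00000051627) is at chr13:23620629-23622558 on the minus strand and H1f5 (ENSMUSG00000058773) at chr13:21779883-21780625 on the minus strand. The replacement genes are elsewhere, H1f0 (ENSMUSG00000096210) at chr15:79028450-79030504 on the plus strand and H1f10 (ENSMUSG00000044927) at chr6:87980421-87981637 on the minus strand.

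The histone stem-loop is shown because it is the usual end of replication-dependent histone mRNAs. A 16-base stem-loop in capitals below, with 5 bases on either side, was found in the annotated transcripts of H1f2, H1f3 and H1f4, at chr13:23739512-23739527 (plus strand), chr13:23555787-23555802 (plus strand) and chr13:23621782-23621797 (minus strand).
H1f2: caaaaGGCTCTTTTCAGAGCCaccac
H1f3: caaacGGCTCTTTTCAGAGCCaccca
H1f4: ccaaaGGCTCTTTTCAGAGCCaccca
The stem-loop began 24, 31 and 40 bases after the end of the coding sequence in H1f2, H1f3 and H1f4. These exact letters were absent from the annotated transcripts of H1f1, H1f5, H1f0 and H1f10; the H1f5 model holds 0 bases after its stop codon, so its end could not be searched. The same 16 bases occurred in 28 of 21901 protein-coding genes (0.128%) and in 21 of 55 replication-dependent core histone genes (38.2%).

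GENCODE continues the H1f2, H1f3 and H1f4 transcripts for 840, 4884 and 1153 bases beyond the stem-loop. Lengths of these models differ from those of RefSeq, with 1560 against 725 bases for H1f2, 7425 against 776 for H1f3 and 1930 against 782 for H1f4. For H1f3 part of the difference lies at the 5′ end. Its GENCODE model starts at 23553262, against 23555032 in RefSeq, and holds 1828 bases before the coding sequence. For H1f1, H1f5, H1f0 and H1f10 the annotated lengths are closer, at 741 and 745, 743 and 794, 2055 and 2293, and 1217 and 1062 bases. This matters where levels are compared between genes per kb of length, and both lengths are given below.

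Promoters are shown for H1f1, H1f3, H1f4 and H1f0 since the classes, and H1f1 within its class, differ in motif content. Each run is the 150 bases before the RefSeq transcription start on GRCm38.p6, read 5′ to 3′ on the gene's strand, with capitals for matches on either strand to AAACACA (the H1 box of H1 promoters), CCAAT (the CCAAT box), TATAAA (the TATA box) and GGGCGG (the GC box). The windows are chr13:23763518-23763667 (H1f1, plus), chr13:23554882-23555031 (H1f3, plus), chr13:23622559-23622708 (H1f4, minus) and chr15:79028062-79028211 (H1f0, plus).
H1f1: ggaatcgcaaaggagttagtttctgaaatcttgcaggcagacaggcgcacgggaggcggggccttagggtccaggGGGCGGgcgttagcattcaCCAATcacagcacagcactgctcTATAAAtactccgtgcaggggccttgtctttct
H1f3: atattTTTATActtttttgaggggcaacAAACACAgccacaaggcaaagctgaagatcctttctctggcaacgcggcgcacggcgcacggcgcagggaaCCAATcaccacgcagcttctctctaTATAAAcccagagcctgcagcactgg
H1f4: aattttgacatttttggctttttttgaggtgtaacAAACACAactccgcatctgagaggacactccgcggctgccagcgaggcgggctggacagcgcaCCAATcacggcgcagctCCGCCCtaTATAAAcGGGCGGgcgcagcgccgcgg
H1f0: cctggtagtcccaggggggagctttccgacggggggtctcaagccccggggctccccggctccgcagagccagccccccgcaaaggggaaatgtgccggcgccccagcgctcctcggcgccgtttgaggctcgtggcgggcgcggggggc
Over the full 300-base RefSeq window (250 bases before and 50 after the start; all 7 members matched), AAACACA was present in H1f2, H1f3, H1f4 and H1f5, beginning between positions −122 and −112 on the gene strand, and was not found in H1f1, H1f0 or H1f10. It occurs in 7.18% of 32851 RefSeq promoters of this length and in 2 of 51 core histone promoters (3.92%). CCAAT stood in all 5 replication-dependent promoters, with a copy beginning between −56 and −51 in each, against 37.4% of all promoters and 84.3% of core histone promoters. TATAAA was present in H1f1, H1f3, H1f4 and H1f5 (13.6% of all promoters, 54.9% of core histone promoters). GGGCGG was found in H1f1, H1f4, H1f5, H1f0 and H1f10 (35.7% of all promoters). No CCAAT or TATAAA occurred in the windows of the replacement genes. GC content also separated the classes, at 45.7% to 54.3% for H1f1 to H1f5, 75.0% for H1f0 and 77.7% for H1f10, beside a median of 52.7% over all promoters. GENCODE starts differ most from those of RefSeq for H1f3 (23553262 against 23555032), H1f0 (79028450 against 79028212) and H1f10 (87981637 against 87981482). Windows set on GENCODE starts were not searched, so these motif and GC values hold for RefSeq windows only.

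**Figure D1:**
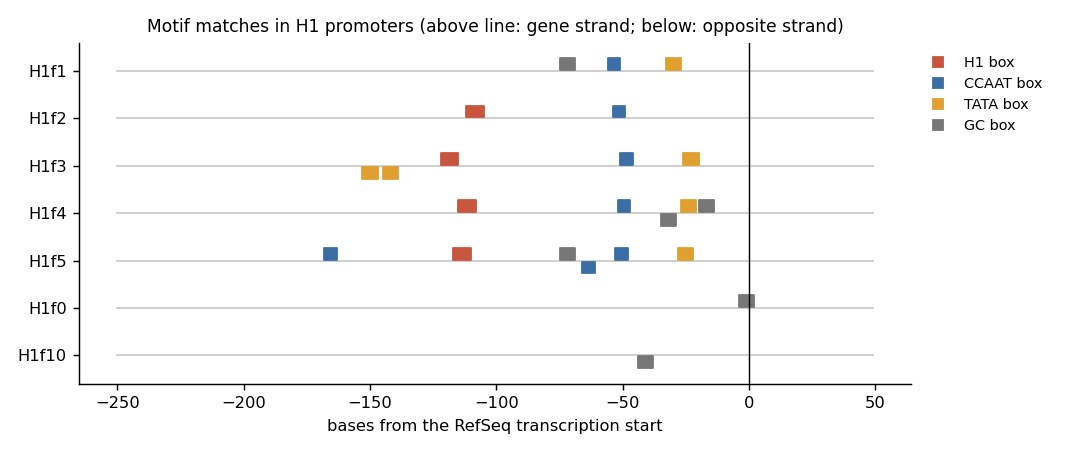
Matches of 4 short motifs in the 300-base promoter windows of the 7 H1 genes, plotted by distance in bases from the RefSeq transcription start, with gene-strand matches above and opposite-strand matches below each line. The H1 box (red) is seen in H1f2 to H1f5 between −122 and −106, and the CCAAT box (blue) near −50 in all 5 replication-dependent genes and in neither replacement gene.

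The libraries held between 11317734 and 51802249 estimated counts, and 3 counts corresponded to 0.0579 to 0.265 CPM. CPM are counts divided by a library size in units of 1e6 reads, scaled by TMM, a correction for composition. Of 21049 genes that passed the filter on low counts, edgeR's quasi-likelihood test placed 0 (0.0%) under an adjusted p of 0.05 (Benjamini-Hochberg), with 1526 at an unadjusted p under 0.05, a number that was 921 without control replicate 4 and 2721 without 2-DG replicate 4; DESeq2 placed 284 and limma-voom 1222 under the adjusted threshold. The retinal identity of the explants was clear from rod markers, whose summed level was 4452 to 38210 CPM. Markers of neutrophils and T cells summed to at most 0.296 CPM in any library. In bulk tissue such as this, fewer cells of a type and less RNA per cell cannot be told apart.

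Among the replication-dependent genes, H1f3 and H1f4 were lower in every 2-DG library than in any control library. H1f3 encodes the variant also called H1.3. It was measured at 7.34, 8.66, 6.72, 7.11 and 8.47 CPM in control replicates 1 to 5 and at 0.679, 1.12, 0.963 and 2.00 CPM in 2-DG replicates 1 to 4. The groups did not overlap: the lowest control library lay 3.36-fold above the highest 2-DG library. Mean levels were 7.66 ± 0.857 CPM for controls (SD, n = 5) against 1.19 ± 0.571 CPM with 2-DG (SD, n = 4), and the fitted log2 fold change was −2.66 (SE 0.38). The 2-DG values rest on 8.19 to 69.7 counts per library, against 88.1 to 270.1 in control.

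H1f3 was also the most even member between control libraries. Its coefficient of variation (CV, the SD divided by the mean) was 11.2%, where counting error alone at the mean control count gives 7.32%, and 3.53% of genes tested had a lower CV. The median CV over all genes tested was 41.7%. Within the 2-DG group the CV of H1f3 was 47.9%.

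H1f4, which encodes variant H1.4, had 7.73, 13.5, 10.9, 6.72 and 9.82 CPM in control replicates 1 to 5 and 1.61, 1.52, 1.19 and 2.35 CPM in 2-DG replicates 1 to 4. Again no 2-DG library reached the lowest control library, which was 2.87-fold above the highest 2-DG library. The means were 9.73 ± 2.66 CPM (SD, n = 5) and 1.67 ± 0.488 CPM (SD, n = 4), with a log2 fold change of −2.54 (SE 0.36). Counts were 143.1 to 304.5 in control and 18.7 to 82.0 in 2-DG libraries. The H1f4 model overlaps 2 annotated genes on the same strand that carry the symbol H2bc6, a protein-coding core histone H2B gene and a transcribed pseudogene. Of the 1900 31-base words in the H1f4 transcript, 466 also occur in the protein-coding gene and 290 in the pseudogene, so the division of reads among the 3 genes is uncertain.

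H1f2 encodes H1.2 and was the replication-dependent member with the highest level. Control replicates 1 to 5 had 40.5, 138.5, 33.5, 56.7 and 40.4 CPM, and 2-DG replicates 1 to 4 had 12.7, 11.4, 13.2 and 36.8 CPM. The groups overlapped through 2-DG replicate 4, which exceeded the lowest control library, while the other 3 2-DG libraries lay below every control. Means were 61.9 ± 43.6 CPM for controls (SD, n = 5) against 18.6 ± 12.2 CPM with 2-DG (SD, n = 4), and the log2 fold change was −1.74 (SE 0.52). The SD was most of the mean in either group, with control replicate 2 far above the others, and without that library the log2 fold change was −1.21.

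H1f1, encoding H1.1, was a low-level transcript. It was measured at 1.19, 0.716, 1.83, 2.19 and 6.62 CPM in control replicates 1 to 5 and at 0.255, 0.218, 0.222 and 0.744 CPM in 2-DG replicates 1 to 4. A single pair of libraries, control replicate 2 and 2-DG replicate 4, made the groups overlap. The means were 2.51 ± 2.37 CPM (SD, n = 5) and 0.360 ± 0.257 CPM (SD, n = 4), with a log2 fold change of −2.78 (SE 0.75) that became −2.03 without control replicate 5. In 2-DG libraries the level rests on 2.87 to 26.1 counts.

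H1f5, encoding H1.5, was the only member that did not pass the filter on low counts. It had 0.154, 0.215, 0.840, 0.817 and 0.808 CPM in control replicates 1 to 5, and 0, 0.0311, 0.130 and 0.229 CPM in 2-DG replicates 1 to 4. In 2-DG replicate 1 the count was 0, which at that depth allows up to 0.265 CPM, and the other 2-DG libraries held at most 8.001 counts. Control replicates 1 and 2, at 3.96 and 2.93 counts, lay within the range of the 2-DG libraries. A fit without the filter gave a log2 fold change of −2.32 (SE 0.83). With the filter, H1f5 passed only when a 2-DG library was left out, at −2.95 without 2-DG replicate 4 and −2.43 to −2.03 without each of the other 3.

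**Figure D2:**
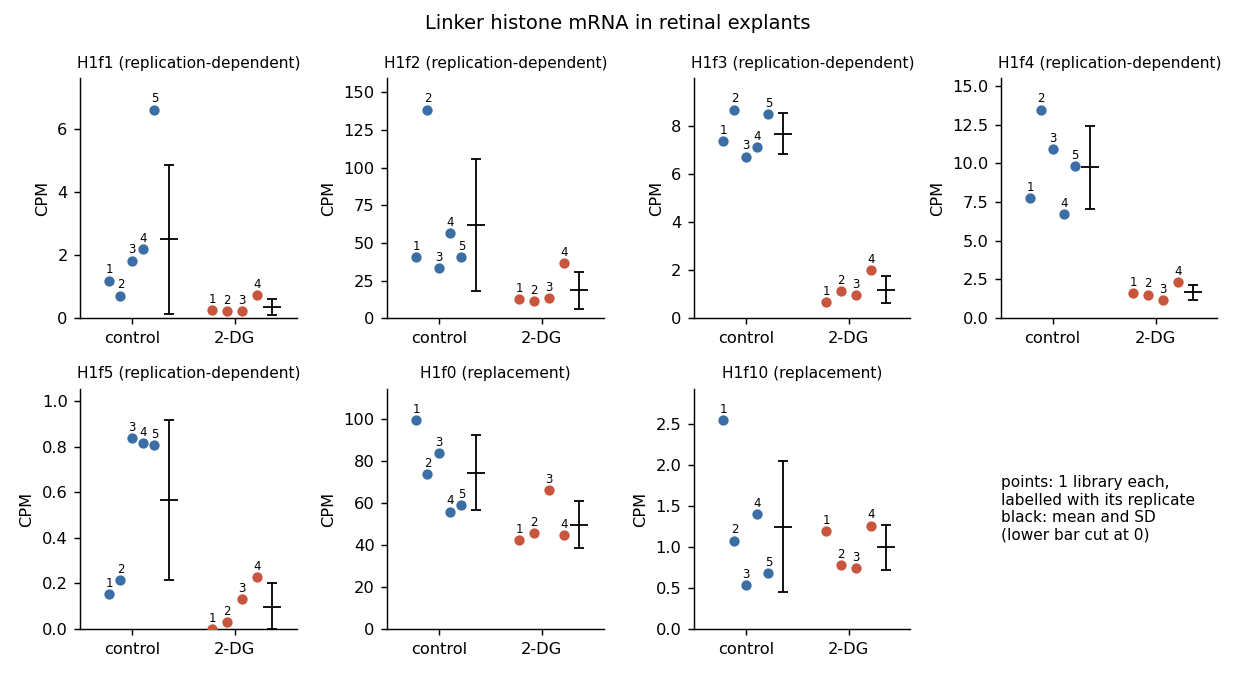
Level of each H1 gene in CPM (y axis, linear, from 0) in the 5 control (blue) and 4 2-DG (red) libraries. Each point is 1 library numbered by replicate, and the black bars give the mean and SD. H1f3 and H1f4 have no overlap between groups, whereas H1f1, H1f2, H1f5, H1f0 and H1f10 overlap.

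The replacement genes differed less between the groups. H1f0, the linker histone of non-dividing cells, was at 99.4, 74.0, 83.8, 56.0 and 59.1 CPM in control replicates 1 to 5 and at 42.3, 45.6, 66.1 and 44.8 CPM in 2-DG replicates 1 to 4. The 2-DG libraries were below all controls in 3 of 4 cases, and 2-DG replicate 3 lay inside the control range. Means were 74.5 ± 17.9 CPM (SD, n = 5) and 49.7 ± 11.1 CPM (SD, n = 4), and the log2 fold change was −0.58 (SE 0.24). The H1f0 level rests on 497.7 to 3570 counts per library.

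H1f10, encoding the divergent variant H1X, was at 2.54, 1.07, 0.534, 1.397 and 0.679 CPM in control replicates 1 to 5 and at 1.19, 0.778, 0.741 and 1.26 CPM in 2-DG replicates 1 to 4. All 4 2-DG libraries were within the control range. The means were 1.24 ± 0.798 CPM (SD, n = 5) and 0.991 ± 0.270 CPM (SD, n = 4), with a log2 fold change of −0.35 (SE 0.51) that turned to 0.08 without control replicate 1. H1f10 shares 183 of 1187 words of 31 bases with the antisense gene Gm5577, and H1f0 shares 133 of 2025 with the antisense gene Gm49544. Whether strand was used in the quantification is not given in the sources used here.

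**Figure D3:**
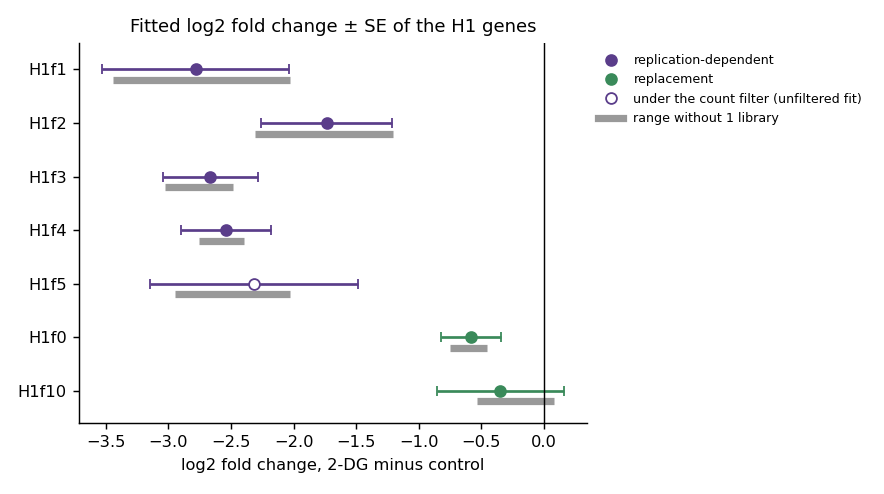
Fitted log2 fold change (2-DG minus control) of each H1 gene, with bars for ± 1 SE and grey bars for the range over fits that each leave out 1 of the 9 libraries (for H1f5, 1 of the 4 2-DG libraries). The open symbol is H1f5, from the fit without the count filter; the 5 replication-dependent genes lie between −2.78 and −1.74, H1f0 at −0.58 and H1f10 at −0.35.

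Of the 6 members that passed the filter, all 6 had a lower fitted level in 2-DG explants, 4 of them by 2-fold or more, and 2 had groups that did not overlap. Over all genes tested, 9.37% were lower by 2-fold or more and 1.41% were lower without overlap. The members were chosen from this contrast, so these counts only restate that choice. The median log2 fold change over all genes tested was −0.01.

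The transcript table gave nearly the same values, as each gene has only 1 transcript. The estimated count of a member's transcript differed from that of its gene by at most 5.12% in any library, the largest difference being in H1f1. Log2 fold changes at the transcript level were −2.85 (SE 0.84) for H1f1, −1.74 (SE 0.58) for H1f2, −2.69 (SE 0.45) for H1f3, −2.58 (SE 0.41) for H1f4, −0.61 (SE 0.25) for H1f0 and −0.37 (SE 0.54) for H1f10. The H1f5 transcript also did not pass the filter. Of 62900 transcripts tested, 0.968% were lower in 2-DG without overlap, as were 2 of the 6 member transcripts tested.

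Summed over H1f1 to H1f5, the replication-dependent level was 56.9, 161.5, 53.8, 73.5 and 66.1 CPM in control replicates 1 to 5 and 15.3, 14.3, 15.7 and 42.2 CPM in 2-DG replicates 1 to 4. The groups did not overlap, although 2-DG replicate 4 was well above the other 2-DG libraries. On the log2 scale the difference of means was −1.95 (SE 0.47). H1f2 made up 61.1% to 87.4% of this sum. Without H1f2, the other 4 genes summed to 16.4 to 25.7 CPM in control and 2.50 to 5.32 CPM in 2-DG libraries, a log2 difference of −2.68.

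The replacement sum of H1f0 and H1f10 was 57.4 to 101.9 CPM in control and 43.5 to 66.9 CPM in 2-DG libraries, with overlap. Its log2 difference was −0.57 (SE 0.21), and H1f0 made up 97.3% to 99.4% of it. The log2 ratio of the replication-dependent to the replacement sum was −0.84, 1.11, −0.65, 0.36 and 0.15 in control replicates 1 to 5 and −1.51, −1.70, −2.09 and −0.13 in 2-DG replicates 1 to 4. The mean ratio moved from 0.02 ± 0.79 (SD, n = 5) to −1.36 ± 0.85 (SD, n = 4), and 2-DG replicate 4 was within the control range.

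Levels of different genes were compared per kb of length. As a share of total H1 CPM per kb by GENCODE lengths, the replication-dependent class was 39.4%, 72.7%, 43.4%, 61.2% and 59.0% in control replicates 1 to 5 and 30.4%, 27.3%, 22.8% and 53.6% in 2-DG replicates 1 to 4. In 3 of the 4 2-DG libraries the share was below all controls, and in replicate 4 it was not. The mean share was 55.1% ± 13.7 over the 5 controls and 33.6% ± 13.7 over the 4 treated libraries (SD). RefSeq lengths gave higher shares, 74.5% ± 9.93 and 54.0% ± 13.7, with a difference of −20.5 percentage points in place of −21.6.

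**Figure D4:**
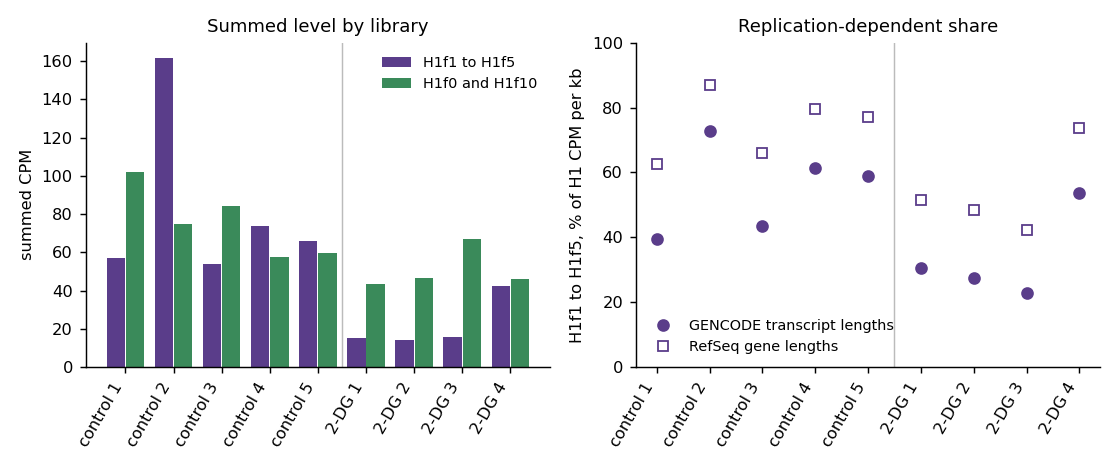
Left, summed CPM of the replication-dependent (purple) and replacement (green) H1 genes in each of the 9 libraries, on a linear axis from 0. Right, the replication-dependent share of total H1 CPM per kb with GENCODE (circles) or RefSeq (squares) lengths; 2-DG replicates 1 to 3 are below all controls with either length, and 2-DG replicate 4 lies within the control range.

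By CPM per kb on GENCODE lengths, the control order was H1f2 (39.7 ± 27.97), H1f0 (36.2 ± 8.73), H1f4 (5.04 ± 1.38), H1f1 (3.39 ± 3.20), H1f3 (1.03 ± 0.115), H1f10 (1.02 ± 0.656) and H1f5 (0.763 ± 0.471; SD, n = 5). H1f2 exceeded H1f0 in 2 of 5 control libraries, so these neighbours did not differ beyond their spread, while H1f0 exceeded H1f4 in 5 of 5. In 2-DG explants, on the same lengths, H1f0 led with 24.2 ± 5.38 CPM per kb, above H1f2 at 11.9 ± 7.83 (SD, n = 4) in 3 of 4 libraries. With RefSeq lengths, H1f2 was above H1f0 in 5 of 5 control libraries (85.4 ± 60.2 against 32.5 ± 7.82 CPM per kb; SD, n = 5). In 2-DG explants RefSeq lengths reversed the mean order of this pair, with H1f2 at 25.6 ± 16.8 and H1f0 at 21.7 ± 4.82 CPM per kb (SD, n = 4), although H1f2 was above H1f0 in only 1 of 4 libraries. H1f3 then ranked next after H1f4, at 9.87 ± 1.104 CPM per kb, and H1f4 at 12.4 ± 3.41 exceeded it in 4 of 5 control libraries. The order of H1f2, H1f0 and H1f3 thus depended on the length used.

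Library-to-library deviations were shared by some members. With the group means removed from log2 CPM, Pearson's r over the 9 libraries was 0.66 between H1f2 and H1f3, 0.63 between H1f2 and H1f4 and 0.55 between H1f3 and H1f4, whose reads may in part be exchanged: 65.2% to 71.1% of the 31-base words in the coding parts of H1f2, H1f3 and H1f4 are unique to 1 gene. H1f0 had r between −0.51 and −0.12 with H1f1 to H1f4. All of these values come from the same libraries and depths.

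Rod markers moved with the replication-dependent sum between libraries. The summed level of 6 of 6 rod markers, none at 0 in every library, ranged from 4452 to 38210 CPM in control and from 6708 to 13995 CPM in 2-DG libraries, and control replicate 2 and 2-DG replicate 4, highest for the H1 sum in their groups, were also highest for rods. With group means removed, r between the rod sum and the replication-dependent H1 sum was 0.82 over 9 libraries. For the other 11 marker lists this r ranged from −0.67 (bipolar cells) to 0.56 (neutrophils and T cells), with −0.46 for microglia, −0.02 for astrocytes and 0.02 for pigment epithelium. The rod sum itself had a log2 difference of −0.23 (exact two-sided permutation p = 0.841). Müller glia markers (6 of 6 measured) ranged from 1388 to 5915 CPM in control and from 553 to 2396 CPM in 2-DG libraries, with a log2 difference of −1.26 (exact two-sided permutation p = 0.0952, adjusted p = 0.847 over 12 marker lists). None of the 12 lists (rods, cones, bipolar cells, amacrine and ganglion cells, Müller glia, astrocytes, microglia, vessels, pigment epithelium, lens, red blood cells, and neutrophils with T cells) passed, with exact permutation p-values from 0.0952 to 0.889. Pigment epithelium markers reached 209.3 CPM in 2-DG replicate 3, where controls held at most 6.82 CPM. That library, whose H1f0 level lay inside the control range, was also the highest of the 2-DG libraries for cone (633.6 CPM), amacrine and ganglion cell (886.6 CPM), Müller glia (2396 CPM), astrocyte (183.3 CPM), microglia (54.2 CPM), lens (11.7 CPM), red blood cell (17.4 CPM), and neutrophil and T cell (0.296 CPM) markers, and without it the H1f0 log2 fold change was −0.75. The part of these cell types in the H1 values was not tested.

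Core histones, which form the nucleosome that H1 binds, were examined beside the linker histones. Of 57 replication-dependent core histone genes listed, 25 passed the count filter; 24 of them had a lower fitted level in 2-DG explants and 0 passed the edgeR threshold (8 at an unadjusted p under 0.05, all lower), with a median log2 fold change of −1.25. Over all genes tested, 4.83% (1017 genes) were lower at that p, a number that was 652 without control replicate 4, 661 without control replicate 5 and 2006 without 2-DG replicate 4. Without overlap, 6 of 25 were lower, beside 1.41% of all genes tested. Medians by family were −2.27 for H2A (3 genes), −1.53 for H2B (9), −1.46 for H3 (5) and −0.96 for H4 (8), where the 4 tested replication-dependent H1 genes had −2.60. The lowest unadjusted p-values were those of H2ac6 (14.0 ± 8.48 against 2.43 ± 1.51 CPM, log2 fold change −2.504, SE 0.56, edgeR adjusted p = 0.495), H2bc6 (−1.96, SE 0.50, adjusted p = 0.524) and H2bc22 (−3.01, SE 0.88, adjusted p = 0.526). H2bc22 averaged 0.421 ± 0.173 CPM over the 5 controls and 0.0460 ± 0.0742 CPM over the 4 treated libraries (SD), the latter mean being under the level of 3 counts in any library, so its fitted fold change is uncertain. The tested core histone genes within 25 kb of a replication-dependent H1 gene all had lower fitted levels, from 1 gene beside H1f4 and H1f5 to 6 beside H1f3. These are not separate sets: H1f1 and H1f2 have the same 4 neighbours, and the overlapping gene H2bc6 is the neighbour of H1f4 and also 1 of the 6 of H1f3.

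Replacement core histones had values nearer to those of replacement H1. All 9 listed genes were tested, 6 lower and 3 higher, 0 past the edgeR threshold and 0 at an unadjusted p under 0.05, with a median of −0.20. The named members were H2aj (log2 fold change −0.69, SE 0.32, edgeR adjusted p = 0.692), the centromeric H3 Cenpa (−0.79, SE 0.45, adjusted p = 0.751) and H3f3b, a gene for H3.3 (−0.25, SE 0.28, adjusted p = 0.854).

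**Figure D5:**
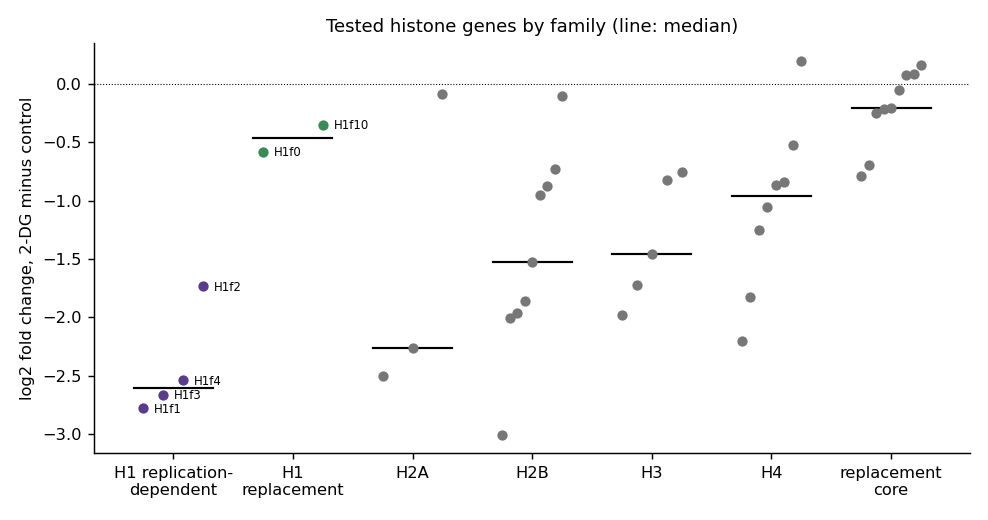
Fitted log2 fold change (2-DG minus control) of the tested H1 members and listed core histone genes, by family, with a line at each family's median. Names are given for H1 genes, and germline H1 genes are not shown. The replication-dependent H1 median is −2.60 and those of the 4 core families lie from −2.27 to −0.96, while replacement H1 and replacement core histones lie at −0.47 and −0.20.

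Genes that act on histone mRNAs or as histone chaperones had medians above 0. Of 13 genes for synthesis and 3′ processing of histone mRNA, 8 were higher, 5 lower and 0 past the edgeR threshold (1 higher and 1 lower at an unadjusted p under 0.05), with a median of 0.14. Over all 21049 genes tested, 509 were higher and 1017 lower at that p. Without overlap, 320 were higher and 297 lower. Zfp473, a zinc finger protein of the U7 processing complex, averaged 7.23 ± 3.53 CPM in the 5 controls and 2.58 ± 0.501 CPM in the 4 treated libraries (SD), with no overlap (log2 fold change −1.49, SE 0.40, edgeR adjusted p = 0.524). Npat, a coactivator of histone genes, had a log2 fold change of 0.66 (SE 0.27, edgeR adjusted p = 0.656), and Cpsf2, a cleavage factor subunit, 0.34 (SE 0.21, adjusted p = 0.767). All 6 H1 and nucleosome chaperones tested had a fitted value above 0 (median 0.29, 0 past the edgeR threshold and 0 at an unadjusted p under 0.05), among them Nasp at 0.38 (SE 0.19, edgeR adjusted p = 0.713), Npm1 at 0.57 (SE 0.35, adjusted p = 0.768) and Nap1l1 at 0.29 (SE 0.19, adjusted p = 0.779), whose groups did not overlap, with 2-DG higher.

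High mobility group proteins, which share nucleosome binding with H1, had a median of 0.03, close to that of all genes, and ran from −0.41 to 0.56. Of the 9, 5 were higher, 4 lower and 0 past the edgeR threshold or an unadjusted p of 0.05. The named members were Hmgn5 (log2 fold change 0.56, SE 0.26, edgeR adjusted p = 0.692), Hmgn1 (−0.41, SE 0.36, adjusted p = 0.826) and Hmgb3 (0.29, SE 0.28, adjusted p = 0.834). Of 23 genes of S phase and division, 16 were higher, 7 lower and 0 past the edgeR threshold (1 lower at an unadjusted p under 0.05), with a median of 0.15. Mki67, the proliferation antigen, averaged 4.97 ± 5.58 CPM in the 5 controls and 1.097 ± 0.394 CPM in the 4 treated libraries (SD; log2 fold change −2.17, SE 0.94, edgeR adjusted p = 0.687), whereas Rrm1, a subunit of ribonucleotide reductase, had 0.36 (SE 0.19, adjusted p = 0.739; groups without overlap, 2-DG higher) and the cyclin Ccnb1 0.77 (SE 0.42, adjusted p = 0.739).

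Outside the set, 6 genes were most like the replication-dependent H1 sum in log2 CPM over the 9 libraries. They were Gm20501 (r = 0.987), H2bc6 (0.983), AW822252 (0.968), Klhdc1 (0.964), Gm28784 (0.960) and H2ac6 (0.956), so that 2 of the 6 were core histones. This r includes the difference between the groups, from which the H1 members were chosen, and all 6 genes had a lower fitted level in 2-DG explants. H2bc6 also overlaps H1f4, a part of the sum, and shares 31-base words with it. How far the group difference or shared reads raised these r values was not tested. With the group means removed the closest were Phactr1 (r = 0.981), Htra2 (0.978), Gm45486 (0.976), Gm21846 (0.975), 0610012G03Rik (0.975) and Luc7l3 (0.973), none of them a histone gene. Since H1f2 dominates the sum, its own r was 0.989 on the second measure, against 0.73 for H1f3, 0.70 for H1f4 and 0.018 for H1f1.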

How the data were processed

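The authors deposited estimated counts per gene (55487 genes) and per transcript (142699), unscaled between libraries; the submitters' processing notes name kallisto and GRCm38, and versions are not given in the sources used here. The authors also deposited a signal table of CPM on a scaled library size (12568 genes), used only as an alternative, and a comparison table of 2-DG with control (fold changes and p-values), not used here. Groups came from the sample titles. All labels give 1 batch. The treatment text, 2-DG included, is the same in every label.

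Estimated counts were rounded, filtered with filterByExpr, scaled by TMM and tested with edgeR 4.0.16 in R 4.3.3 (glmQLFit, legacy=TRUE, robust=FALSE; group as the only term; Benjamini-Hochberg over all features kept; threshold 0.05). The SE of a log2 fold change was its size over the root of F. Levels in CPM used TMM-scaled library sizes, and log2 CPM for correlations had 2 as prior count. The edgeR step was tested on data simulated with less spread between libraries than was found here (common dispersion 0.265). That test gives no measure of how many changes were missed in these libraries. Sums of 12 marker lists were compared on log2(sum + 1) by exact two-sided permutation (smallest possible p 0.00794; scipy 1.17.1). DESeq2 1.42.0 and limma 3.58.1 served as alternatives, with other scalings, no filter, a replicate block and each library left out. The floor of 3 counts covers counting error only, whereas SDs and SEs include the spread between libraries.

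Members and gene lists were chosen with earlier results of these data known. All members were named, with the 3 genes of lowest unadjusted p in each of 7 lists and the 6 genes most like the replication-dependent sum by each measure. Symbols matched 99.4% of IDs; gene models were GENCODE M21 (GRCm38), and promoters and further lengths RefSeq (GRCm38.p6). Protein sequences were not used here.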

Additional observations from a re-analysis of the deposited data

Results flagged for a closer look

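In 20 groups of 4 or 5 libraries examined (each member, both sums and the replication-dependent share, by treatment), 8 values stood far from the other libraries of their group by Dixon's criterion; chance gives about 1 in 20 groups. In the control group these were H1f1 in replicate 5 (6.62 CPM, next 2.19), H1f2 in replicate 2 (138.5 CPM, next 56.7) and the replication-dependent sum in replicate 2 (161.5 CPM, next 73.5). In the 2-DG group they were H1f1, H1f2 and the replication-dependent sum in replicate 4 (0.744, 36.8 and 42.2 CPM, next 0.255, 13.2 and 15.7), and H1f0 and the replacement sum in replicate 3 (66.1 and 66.9 CPM, next 45.6 and 46.4). The sums repeat their main genes and are not separate events. H1f3 and H1f4 had no such library in either group.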

How the results depend on the processing

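The number of genes past the adjusted threshold was 284 with DESeq2 and 1222 with limma-voom, where edgeR gave 0 under the main settings, and 0 to 16 when 1 library was left out (16 without control replicate 2, 2 without 2-DG replicate 4). For transcripts DESeq2 gave 144 and limma-voom 10. In the 7 lists beside H1, DESeq2 placed 4 genes and limma-voom 13 past the threshold, edgeR 0. The cause was not tested. The replication-dependent sum had a log2 difference of −2.68 without H1f2, an alternative chosen after seeing the data, and −2.32 to −1.67 without 1 library; the replacement sum had −0.71 to −0.45 and the replication-dependent share −28.3 to −17.2 percentage points. The H1f10 log2 fold change ranged from −0.53 without control replicate 3 to 0.0804, a reversed sign, without control replicate 1. The log2 fold change without 1 library ranged from −3.44 to −2.03 for H1f1, −2.31 to −1.21 for H1f2, −3.03 to −2.48 for H1f3, −2.76 to −2.40 for H1f4 and, over the 4 fits that H1f5 entered, −2.95 to −2.03 for H1f5. Replicate numbers did not pair the libraries (r of same-numbered deviations 0.451, −0.155, 0.102 and 0.205). With the replicate block, 0 genes and 0 transcripts passed, and 1351 genes had an unadjusted p under 0.05. No block was fitted to the sums. Keeping replicates 1 to 4 of both groups gave −1.99 for the replication-dependent sum, which is the value without control replicate 5. At depths of 11317734 to 51802249 counts, H1f5 and H1f1 in 2-DG libraries rest on few counts.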

Other observations

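Among the germline linker histones, H1f8, the oocyte variant, had more estimated counts than any somatic H1 gene in some libraries. It was at 259 ± 242 CPM (SD, n = 5) for controls against 120 ± 194 CPM (SD, n = 4) with 2-DG, with a log2 fold change of −1.11 (SE 1.09, edgeR adjusted p = 0.839). Controls ranged from 37.8 to 636.1 CPM. The 2-DG mean rests on replicate 4 at 410.3 CPM, while replicates 1 to 3 were at 18.6, 33.04 and 17.0 CPM. H1f8 lies at chr6:115944938-115950236 on the plus strand of GRCm38. H1f6, the testis variant, was at 0.513 ± 0.358 CPM (SD, n = 5) for controls against 0.0944 ± 0.0821 CPM (SD, n = 4) with 2-DG (log2 fold change −2.32, SE 0.92, edgeR adjusted p = 0.644), on at most 19.9 counts per library. Both were chosen with the germline list, of which 2 of 4 genes passed the count filter.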
